A study of Mus musculus with 4 samples.

Results

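Natural killer (NK) receptors, their signalling adaptors, the granule protein gene Nkg7 and the chains of CD8 were followed in stimulated mouse CD4 T cells with and without the microRNA miR-146a. The set holds 10 genes, taken by gene symbol, and every probe set of the array with exactly 1 of these symbols was included, which gave 15 probe sets among 45037 and 10 genes among 18193. Naive CD4 T cells were sorted from 2D2 Tg mice, whose T cells bear a transgenic receptor for a myelin oligodendrocyte glycoprotein peptide, and were cultured for 3 days on plate-bound anti-CD3 at 5 µg/ml with anti-CD28 at 1 µg/ml. The first group was wildtype for miR-146a and the second was miR-146a-deficient. Both carried the 2D2 transgene and had the same stimulation, and no unstimulated or sorted NK sample was analysed here. Each group had 2 samples, hybridised to Mouse Genome 430 2.0 arrays from 100 ng of total RNA. The labels call them biological replicates without saying whether they came from separate mice, so the p-values measure the spread between these samples. The kind of deletion and the age and sex of the mice are not given in the sources used here.

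NK cells read their targets through paired receptors. Many of these are lectin-like proteins encoded side by side in the NK gene complex: CD94 (Klrd1) pairs with the inhibitory NKG2A (Klrc1) and binds Qa-1, while NKG2D (Klrk1) is an activating receptor for stress-induced ligands. Many activating receptors have no signalling motif of their own. They rely on adaptors such as DAP12 (Tyrobp), DAP10 (Hcst) and the Fc receptor gamma chain (Fcer1g). Of these, DAP12 and the gamma chain carry tyrosine motifs (ITAMs) that recruit Syk family kinases. Several of these receptors also appear on activated CD8 T cells, and Nkg7 is expressed in cytotoxic and Th1 cells, so their transcripts in a CD4 T cell culture may come from T cells or from other cells. In bulk RNA, fewer cells of a type and less RNA per cell cannot be told apart.

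The microRNA removed in the deficient mice and its paralog miR-146b, which lies on another chromosome, are shown because they share the seed, the stretch with which a microRNA pairs to its targets. Bases 2 to 8 are in capitals, and the sequences are from RefSeq on GRCm38.p6, miR-146a-5p at chr11:43374435-43374456 on the minus strand and miR-146b-5p at chr19:46342790-46342811 on the plus strand. Of 22 bases, 20 are identical.
miR-146a-5p: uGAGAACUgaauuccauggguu
miR-146b-5p: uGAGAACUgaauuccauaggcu

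The loss of miR-146a itself could not be read from the named probe sets. T cell transcripts were well above the filter on dim genes on all arrays. Of 8 T cell markers, 7 were tested and none passed; their log2 differences ran from -0.16 for Cd5 to 0.10 for Cd28. Cd4 read 605 and 655 in the wildtype samples and 462 and 725 in the deficient samples, with a log2 difference of -0.12 ± 0.20. Most marker transcripts of B cells moved with the genotype. Of 10 tested B cell markers, 5 (Ms4a1, Blnk, Cd22, Mzb1 and Pou2af1) rose and passed. Over all tested genes 0.179% passed, in either direction. A positive difference was seen for 9 of the 10, while Cd37 had -0.09 with overlapping groups. Pax5, below the filter, read 68.9 and 23.9 in wildtype and 11.3 and 21.9 in deficient samples. The summed signal of the B cell list was 2979 and 4064 in wildtype against 9715 and 10894 in deficient samples. Of the 3'/5' control ratios, which reflect RNA quality, only that of the transferrin receptor was clearly separate between the genotypes. For the transferrin receptor control probe sets the ratio was 2.40 and 2.74 in wildtype and 1.92 and 2.23 in deficient samples, without overlap. For Gapdh it was 0.7783 and 0.808 against 0.746 and 0.7781, barely separate. For beta-actin it was 1.17 and 1.30 against 1.14 and 1.25, where the groups overlapped. The part of RNA quality in the values below was not tested.

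The receptor genes of the NKG2 system and Nkg7 had higher signals on both deficient arrays than on either wildtype array, but no gene of the set passed the test. Of the 10 genes, 9 passed the filter on dim genes and 0 reached an adjusted p of 0.05 in limma, where 0.179% of the 12821 genes tested did. Fitted by probe set, 0 of 13 passed, against 0.167% of 27022. At an unadjusted p below 0.05 there were 4, Klrk1, Klrc1, Nkg7 and Klrd1, all higher in the deficient samples, against 2.85% of all tested genes in that direction. The groups did not overlap for 6 of the 9, again all higher, against 15.9% of all genes. One of the 6, Cd8a, is represented by a probe set that is its brightest only through the deficient arrays, and without Cd8a the count is 5 of 8. The median log2 difference of the 9 was 0.56, beside -0.01 over all tested genes. The genes of the set were chosen with earlier results of these data known, so these shares and medians are a description and no test. The filter uses the mean over all 4 arrays. With 2 arrays against 2, an exact permutation test of a single gene cannot go below p = 0.333, and every p given here comes from limma, which borrows the spread of other genes.

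**Figure D1:**
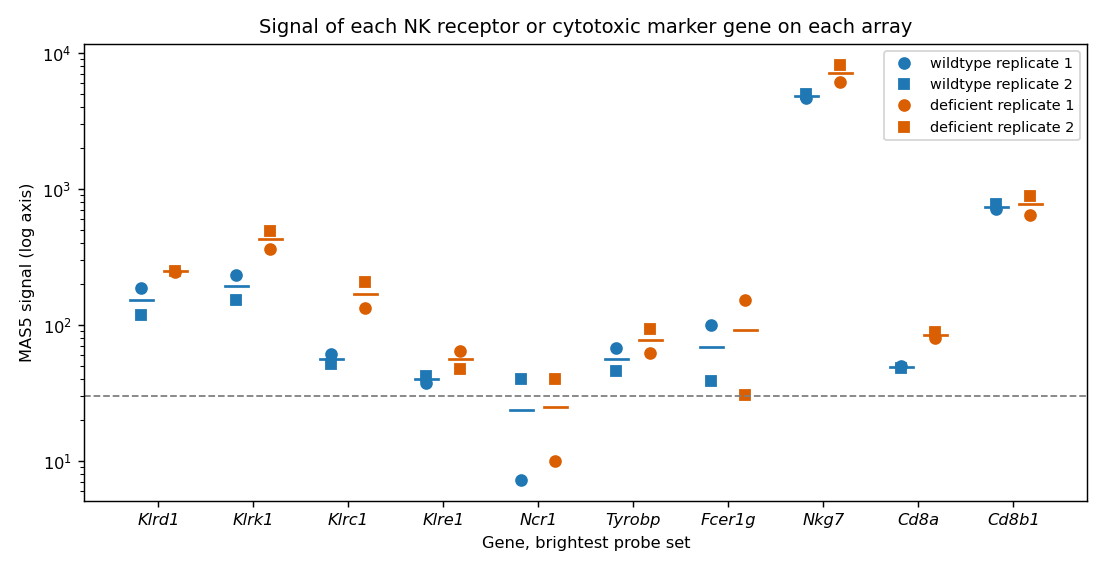
MAS5 signal (log axis) of the brightest probe set of each of the 10 genes on each array, with wildtype in blue, deficient in orange, replicate 1 as circles, replicate 2 as squares and group means as bars. The dashed line is the signal of 29.9 that corresponds to the filter on dim genes. Klrd1, Klrk1, Klrc1, Klre1, Nkg7 and Cd8a have both deficient arrays above both wildtype arrays, and Ncr1 lies around the line.

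Klrk1, which encodes the activating receptor NKG2D, had the smallest p of the set in the fit by gene, nearly tied with Klrc1. In the fit by probe set the brighter Klrc1 probe set came first (limma unadjusted p = 0.00123 against 0.00136 for Klrk1). The Klrk1 signal was 230.5 and 152 in the wildtype samples and 358 and 489 in the deficient samples. Both deficient samples lay above both wildtype samples, and the means differed 2.22-fold, at 191 ± 55.5 against 424 ± 92.3 (SD, n = 2 each, as for all means below). On the log2 scale the difference was 1.10 ± 0.23 (SE), with a limma adjusted p of 0.237. It exceeded the difference between replicates, which was 0.56 in wildtype and 0.43 in deficient samples. The call turned on the setting: without wildtype replicate 1 the difference was 1.38 and passed (limma adjusted p = 0.00205), with a single wildtype array left, and after centring each array on its median it was 1.18 and passed (limma adjusted p = 0.0335), though not in the fit by probe set (limma adjusted p = 0.0573). It was 0.82 without wildtype replicate 2 and 0.88 without deficient replicate 2, and did not pass (limma adjusted p = 0.138 and 0.541).

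Klrc1, which encodes the NKG2A subunit of the inhibitory CD94 receptor, showed the largest difference of the tested genes in the set. Its brighter probe set read 61.1 and 51.9 in wildtype and 132 and 205 in deficient samples, so the groups were far apart on a dim probe set. The means were 56.5 ± 6.52 and 169 ± 51.4, 2.99-fold apart, and the log2 difference was 1.34 ± 0.29 (limma adjusted p = 0.246). The other Klrc1 probe set read 45.0 and 3.32 against 57.8 and 102. That probe set also had no overlap between groups and a difference of 1.48 ± 0.57, but it passed the filter only through the deficient arrays and therefore had to be higher there. Klrc1 has close paralogs in Klrc2 and Klrc3, whose own probe sets stayed below the filter with signals of at most 5.02 and 10.8. Whether the Klrc1 probe sets also bind paralog transcripts was not tested.

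Klrd1, which encodes CD94, the common partner of the NKG2A family, read 186 and 119 in wildtype and 245 and 249.98 in deficient samples. The deficient samples were nearly equal, and the gap between the wildtype samples, 0.59 on the log2 scale, was close to the genotype difference of 0.68 ± 0.23 (limma adjusted p = 0.744). Without wildtype replicate 2 the difference was 0.38. Klre1, whose lectin-like product NKG2I is an NK receptor of the mouse, was dim, at 37.6 and 42.3 against 64.1 and 47.7. Its groups did not overlap, but the difference of 0.36 ± 0.35 was about as large as its error. The 95% interval ran from -0.44 to 1.17, and the difference from 0.19 to 0.53 as single arrays were left out.

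Klre1, Klrd1, Klrk1 and Klrc1 lie in this order within 6 consecutive protein-coding genes of chromosome 6, in the gene order of RefSeq. Klrc3 and Klrc2 are the others of the 6. Of 25 lectin-like receptor and neighbouring genes listed from chromosome 6, 16 had a probe set with 1 symbol and 7 passed the filter. None passed the test; 6 of the 7 had a positive difference, with a median of 0.31. Klrb1f, a receptor of the NKR-P1 family, read 52.8 and 36.5 in wildtype and 99.4 and 158 in deficient samples. Its log2 difference was 1.25 ± 0.33 (limma adjusted p = 0.446). Clec2d, which encodes a ligand of NKR-P1 receptors, had 0.31 ± 0.12, and Klra5, of the Ly49 family, 0.37 ± 0.41. Klrb1a, Klrb1b, Klra1, Klra2, Klra8, Klra17 and Clec1b were below the filter, as were Klrc2 and Klrc3.

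**Figure D2:**
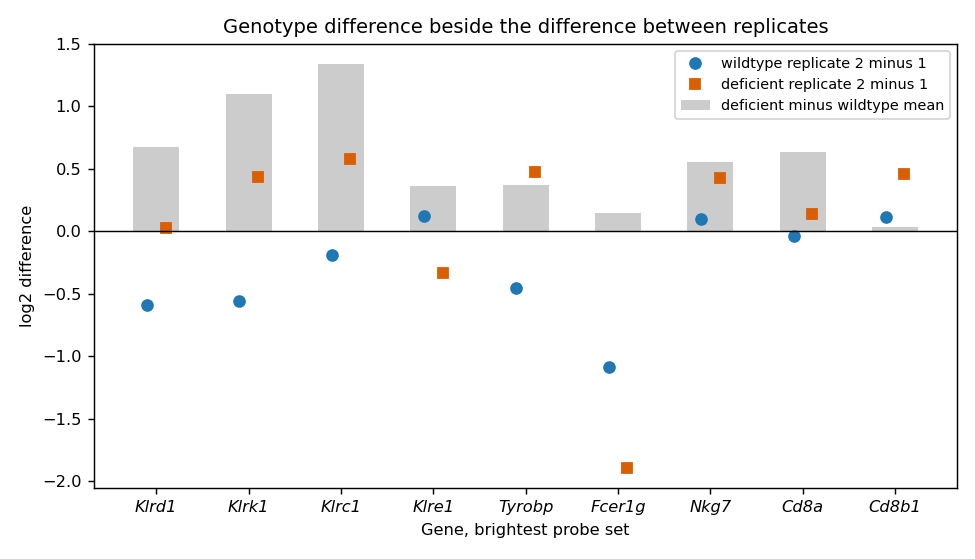
Log2 differences of the 9 tested genes, with grey bars for deficient minus wildtype means, blue circles for wildtype replicate 2 minus replicate 1 and orange squares for deficient replicate 2 minus replicate 1. The bars of Klrk1, Klrc1 and Cd8a stand clear of their replicate differences, and for Fcer1g both replicate differences exceed the bar.

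Ncr1, which encodes NKp46, the receptor most specific to NK cells, did not pass the filter. It read 7.23 and 40.2 in wildtype and 10.1 and 39.98 in deficient samples, so the range within each genotype was far wider than the gap between the genotypes. Of 11 markers listed for NK cells, 7 had a probe set and 5 were tested, with none past the threshold. Eomes, a transcription factor of NK cells and of activated T cells, made up most of the signal of that list. It read 218 and 342 against 396 and 662, a difference of 0.87 ± 0.27 (limma adjusted p = 0.642). The other tested markers went both ways: Klra7, of the Ly49 family, and Klre1 had 0.39 ± 0.48 and 0.36 ± 0.35, and Fcgr3 and Itga2 -0.56 ± 0.41 and -0.81 ± 0.61, with a list median of 0.36. These were dim. Itga2 read 59.7 and 45.2 against 4.88 and 59.7, and Klra7 43.7 and 13.0 against 43.3 and 33.2, each with overlapping groups. Fcgr3 read 51.0 and 53.5 against 43.8 and 20.4. The summed signal of the NK list was 421 and 560.0 in wildtype and 581 and 872 in deficient samples. The markers of that list below the filter, Ncr1 and Klra8, read at most 40.2 and 23.4 on any array. Zbtb16 and Sox13, factors of NKT and gamma delta T cells that can carry NK receptors, had -0.33 ± 0.37 and -0.53 ± 0.36. The part of carried-along NK cells in the Klrk1, Klrc1 and Klrd1 differences was not tested.

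The adaptor genes showed no separation of the genotypes. Tyrobp, which encodes DAP12, read 67.6 and 45.4 in wildtype and 62.4 and 92.6 in deficient samples. The groups overlapped, and the difference was 0.37 ± 0.34 with a 95% interval from -0.40 to 1.14. It was 0.13 without deficient replicate 2 and 0.14 without wildtype replicate 2. Fcer1g, which encodes the common gamma chain of Fc receptors, varied more between replicates than between genotypes, at 99.3 and 38.9 in wildtype against 153 and 30.3 in deficient samples. Replicate 1 was the brighter array in both genotypes, and the difference of 0.15 ± 0.60 had an interval from -1.22 to 1.52. The sign turned to -0.80 without deficient replicate 1 and to -0.39 without wildtype replicate 2. Hcst, which encodes the NKG2D adaptor DAP10 and was named after its values were seen, read 658 and 643 against 605 and 743, a difference of 0.04 ± 0.14.

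Tyrobp and Fcer1g are also transcripts of myeloid cells, and Fcer1g of mast cells and basophils. Of 6 tested macrophage and monocyte markers only Cybb, a phagocyte oxidase subunit, rose. The others had differences from -0.52 for Lyz2 to 0.21 for Csf1r, with Itgam and Cd14 below the filter, and the summed signal of that list was 623 and 626 in wildtype against 753 and 887 in deficient samples. Without Cybb the sum went the other way, at 569.6 and 569 against 469 and 534. Of 5 tested dendritic cell markers, Ccl22 and Ly86 rose, while Batf3, Cd209a and Zbtb46 had -0.13, -0.29 and -0.04. That list summed to 5782 and 6534 against 7748 and 7383, and without Ccl22 and Ly86 to 5077 and 5872 against 5495 and 4429. Batf3 alone made up most of that remainder, at 4679 and 5634 against 5281 and 4151. The mast cell and basophil genes Fcer1a and Ms4a2, partners of the gamma chain in the IgE receptor, were below the filter, at most 18.5 and 17.8. Of the tested genes of that list, Cpa3, a mast cell protease gene, read 51.5 and 24.9 in wildtype and 71.4 and 4.20 in deficient samples, and Kit 41.1 and 27.9 against 37.9 and 37.0. The list summed to 142 and 104 against 163 and 66.0, and like Fcer1g was brighter on the first array of each genotype. The gamma delta T and NKT list had the same order, at 158 and 111 against 109 and 72.3. Within the mast cell list, Fcer1a went the other way in deficient samples (10.4 and 18.5). In wildtype samples Ms4a2 (13.6 and 17.4) and Mcpt8, also below the filter (24.1 and 31.9), did so. All 4 neutrophil markers with a probe set were below the filter. The part of these cells in the adaptor values was not tested.

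Downstream of ITAM adaptors, 23 of 27 listed signalling genes were tested and none passed, with a median difference of -0.05. Btk, a kinase of B cells and myeloid cells, read 71.3 and 18.6 against 156 and 157, a difference of 1.67 ± 0.43 (limma adjusted p = 0.415). Malt1, a scaffold of NF-kB activation, had -0.33 ± 0.11 and Plcg2, the phospholipase used by B cells and NK cells, 0.42 ± 0.14. Syk, the kinase recruited by DAP12 and named after its values were seen, read 81.0 and 51.8 against 98.2 and 119, a difference of 0.62 ± 0.30 (limma adjusted p = 0.951). Btk, Plcg2 and Syk are B cell genes as well, and like most B cell markers above they were higher in both deficient samples. Within wildtype, Btk and Syk were brighter in replicate 1, while the B cell sum was lower there, at 2979 against 4064 in replicate 2. Plcg2 had the order of that sum, at 482 in wildtype replicate 1 and 579 in replicate 2. The part of B cells in Btk, Plcg2 and Syk was not tested.

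Among 31 other NK receptors and adaptors, 20 were tested. None passed, 9 had a positive and 11 a negative difference, and the median was -0.03. Cd226, which encodes the activating receptor DNAM-1, was lower in both deficient samples, at 54.9 and 57.9 against 120.2 and 106, with a difference of -0.84 ± 0.27 (limma adjusted p = 0.680). Slamf6 and Slamf7, receptors of the SLAM family, had 0.40 ± 0.15 and 0.29 ± 0.15. Of 10 ligand genes of the NKG2 receptors only Ulbp1 was tested, with a difference of 0.03 ± 0.27, and H60c was below the filter.

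**Figure D3:**
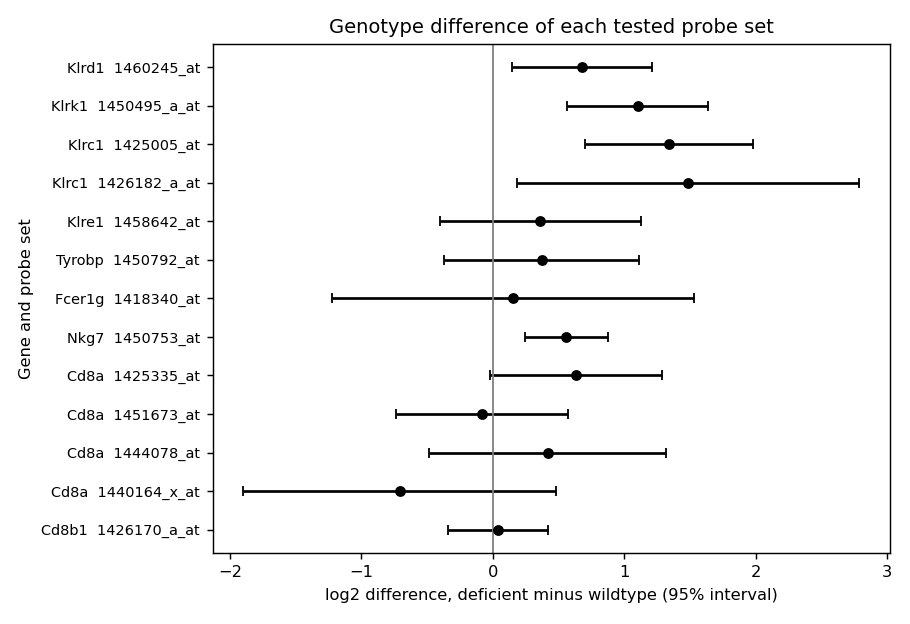
Log2 difference, deficient minus wildtype, with its 95% interval for the 13 tested probe sets, from the fit over 27022 probe sets. The intervals are not adjusted for the number of probe sets. Both Klrc1 probe sets lie above 0, while the 4 tested Cd8a probe sets lie on both sides of 0.

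Nkg7, which encodes a membrane protein of cytotoxic granules, was far above the filter on every array. Its signal was 4608 and 4932 in wildtype and 6062 and 8154 in deficient samples. Both deficient samples were higher, although they differed from each other by 0.43 on the log2 scale, more than the wildtype pair at 0.10. The means were 4770.2 ± 229 and 7108 ± 1479, 1.49-fold apart, a log2 difference of 0.56 ± 0.14 (limma adjusted p = 0.363). Nkg7 passed without wildtype replicate 2 (0.61, limma adjusted p = 0.0280) and without deficient replicate 1 (0.77, limma adjusted p = 0.0347), so that 1 genotype was down to a single array. Neither passed in the fit by probe set (limma adjusted p = 0.101 and 0.118), and without deficient replicate 2 the difference was 0.35 (limma adjusted p = 0.751).

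Of 27 listed lineage factors and effector genes of NK and cytotoxic cells, 26 were tested, 19 with a positive and 7 with a negative difference, at a median of 0.22. Ifng, the interferon-gamma gene, was the only one that passed, at 6570.0 and 6772 against 11428 and 10699, a difference of 0.73 ± 0.09 (limma adjusted p = 0.0195). Serpinb9, an inhibitor of granzyme B, had 0.62 ± 0.14 and the chemokine gene Ccl3 0.89 ± 0.20, neither past the threshold. Gata3 and Id2, transcription factors also named later, had -0.34 ± 0.09 and -0.38 ± 0.14. The granule genes Gzmb and Prf1, named after their values were seen, had 0.36 ± 0.11 and 0.31 ± 0.24. Prf1, which encodes perforin, read 138 and 105 against 168 and 138, with barely separate groups.

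Of the CD8 chains, the beta chain gene Cd8b1 was far above the filter on every array, at 707 and 767 in wildtype and 644 and 888 in deficient samples. The wildtype values lay between the deficient values, and the difference of 0.04 ± 0.16 had a 95% interval from -0.34 to 0.41. Without deficient replicate 2 it was -0.19 and without wildtype replicate 1 it was -0.02. Cd8a, the gene of the alpha chain that CD8 needs to reach the surface, had 5 probe sets, all dim.

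The brightest Cd8a probe set by the mean over all arrays read 49.6 and 48.1 in wildtype and 79.4 and 88.9 in deficient samples. The groups were separate and each pair was tight, with a difference of 0.63 ± 0.30 (limma adjusted p = 0.951). The next brightest, made to the same transcript record, read 68.1 and 63.5 against 63.2 and 59.3, a difference of -0.08 ± 0.29. It was the brighter of these probe sets on both wildtype arrays, so that the deficient arrays decided which one stands for the gene. Another gave 0.42 ± 0.39, where only deficient replicate 1 was high, at 88.1 beside 38.1 to 40.6 on the other arrays. A further one gave -0.71 ± 0.52, where deficient replicate 2 was low, at 9.89; it passed the filter only through the wildtype arrays and therefore had to be lower in the deficient ones. The remaining one was below the filter. The Cd8a probe sets thus gave no common direction, and with the mean of all 5 in place of the brightest the difference was 0.07. Runx3, a transcription factor of the CD8 lineage, had 0.12 ± 0.15, and Zbtb7b, its CD4 lineage counterpart, -0.01 ± 0.18.

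**Figure D4:**
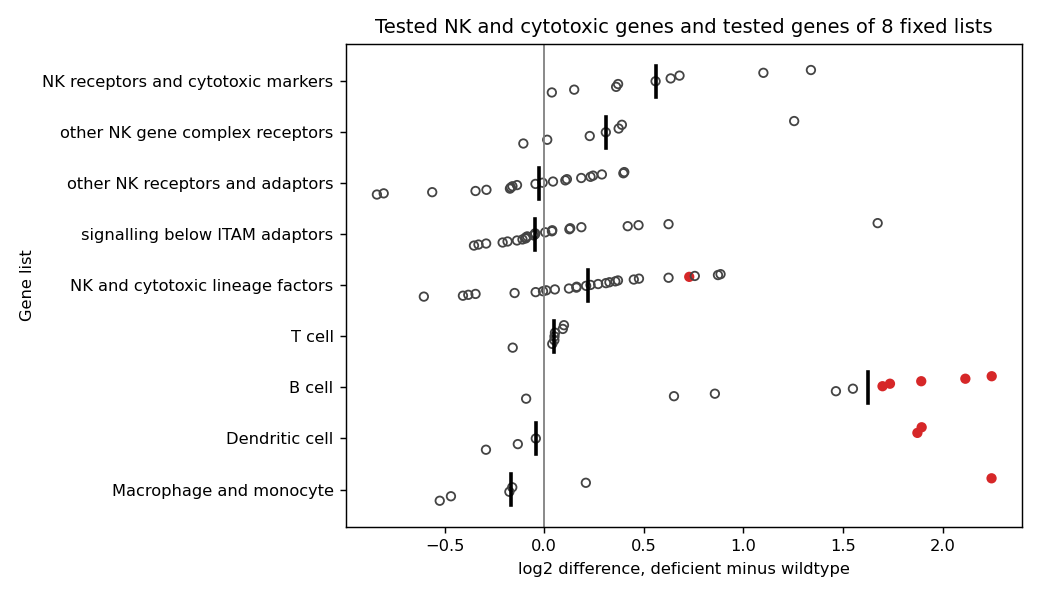
Log2 difference, deficient minus wildtype, of every tested gene (circles) among the NK receptors and cytotoxic markers and in 8 fixed lists, with the list median as a black bar and genes at an adjusted p below 0.05 filled red. None of the 9 NK and cytotoxic genes is filled, and the filled genes are Ifng, B cell markers, Ccl22, Ly86 and Cybb.

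The promoters of Klrk1, Klrc1 and Nkg7, the genes of the set with the smallest p, are shown from 250 bases before to 50 bases after the start, so that the letters known as core motifs of lymphocyte transcription factors can be seen. They are from RefSeq on GRCm38.p6, at chr6:129623815-129624114 (minus strand), chr6:129678924-129679223 (minus strand) and chr7:43436888-43437187 (plus strand). Capitals mark the RUNX core TGTGGT (or ACCACA on the other strand) and the T-box motif AGGTGTGA (or TCACACCT).
Klrk1: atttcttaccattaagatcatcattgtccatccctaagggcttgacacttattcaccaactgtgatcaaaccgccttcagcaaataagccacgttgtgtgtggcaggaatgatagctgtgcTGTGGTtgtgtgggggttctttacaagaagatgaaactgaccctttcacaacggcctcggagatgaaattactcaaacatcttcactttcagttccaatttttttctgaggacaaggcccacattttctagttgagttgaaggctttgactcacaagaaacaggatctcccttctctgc
Klrc1: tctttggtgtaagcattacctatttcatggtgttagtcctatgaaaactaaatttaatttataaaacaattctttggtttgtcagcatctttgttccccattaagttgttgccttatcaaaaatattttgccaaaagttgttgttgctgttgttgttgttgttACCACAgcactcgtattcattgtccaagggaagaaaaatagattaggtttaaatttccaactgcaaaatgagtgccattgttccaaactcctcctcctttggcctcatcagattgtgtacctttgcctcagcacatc
Nkg7: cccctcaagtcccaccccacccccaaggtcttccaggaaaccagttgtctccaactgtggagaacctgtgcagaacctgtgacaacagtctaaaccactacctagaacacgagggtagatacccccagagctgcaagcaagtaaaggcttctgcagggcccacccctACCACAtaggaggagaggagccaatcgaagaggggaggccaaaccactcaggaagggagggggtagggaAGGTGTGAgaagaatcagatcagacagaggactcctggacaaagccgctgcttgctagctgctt

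Each of the 3 promoters holds 1 RUNX core, and Nkg7 also holds 1 T-box motif; the motifs do not overlap each other there. A promoter was given for 7 of the 10 genes, and 6 of the 7 hold a RUNX core in a listed promoter, Cd8a being the exception. Over all 32851 promoters of the same length, 16.8% hold the RUNX core and 1.28% the T-box motif on either strand. These shares count single promoters, whereas the count above takes a gene with a match in any of its promoters. The counts are therefore not directly comparable. The motifs were picked with these sequences in view. A match is a run of letters and does not show that a factor binds there.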

How the data were processed

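The deposited values are linear intensity, 1 MAS5 signal for each probe set on each array. MAS5 and the Transcriptome Analysis Console are named, without version, in the submitters' processing notes. Every array has a 2% trimmed mean of 500, so the deposited values were already scaled. MAS5 detection calls were not used, and no scan date or batch was known. With 2 arrays a group, precision is low.

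Of 45101 probe sets, 64 controls were left out; 34945 of the rest have 1 gene symbol, 932 several and 9160 none in the platform's annotation. Signals were transformed as log2(signal + 14.7), the 25th percentile of all values, which understates folds of dim genes. Each gene was represented by its brightest probe set by mean log2 value, and tested if that mean reached the 40th percentile over probe sets (5.48, a signal of 29.9). Differences are deficient minus wildtype ± SE, from limma 3.58.1 in R 4.3.3 (lmFit, eBayes with an intensity trend, two-sided, Benjamini-Hochberg over all features tested, threshold 0.05, 8.60 degrees of freedom, 2 from the arrays). The fit was also run on all 27022 probe sets past the filter, which gave the values of secondary probe sets. It was tested on simulated data. Figures used matplotlib 3.10.9 in Python 3.11.15.

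Members and lists were chosen with earlier results of these data known. Named genes were all 10 members and, of each list, those past the threshold and up to 3 with the smallest p; others are marked as named later, except markers that give the range or rest of a list and genes below the filter, which have no p. Listed genes without a probe set of 1 symbol were not used here.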

Additional observations from a re-analysis of the deposited data

How the results depend on the processing

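No gene of the set passed in 11 of 15 alternatives, and 1 passed in the other 4: Klrk1 after median centring and without wildtype replicate 1, and Nkg7 without wildtype replicate 2 or without deficient replicate 1, so the count ran from 0 to 1 when single arrays were left out. Klrk1, Klrc1, Klrd1 and Nkg7 kept a positive difference in all 15; Klrc1 reached a limma adjusted p of 0.0528 at the lowest and Klrd1 0.120. The median difference of the tested genes was 0.43 with a pseudocount at the median of all values, 0.68 with a filter at the 60th percentile, 0.37 with the mean of all probe sets, and 0.42 to 0.69 without single arrays. Cd8b1 ran from -0.19 to 0.27 and Fcer1g from -0.80 to 1.10 without single arrays, and of the dimmer Cd8a probe sets 1 ran from -1.51 to 0.089 and another from -0.062 to 0.90. Over all genes, 23 passed, against 2 without a filter, 51 after median centring, 14 with the mean of probe sets, 0 without the intensity trend (769 at an unadjusted p below 0.05), 40 at an adjusted p of 0.10 and 27 to 99 without single arrays. Of the calls 95.7% were higher, against 66.7% without wildtype replicate 1. Over probe sets, 45 passed, against 4 without a filter, 88 after median centring, 0 without the trend (1651 at an unadjusted p below 0.05) and 29 to 140 without single arrays. With the replicate number as a block, 14 genes and 71 probe sets passed and none of the set. Replicate 1 minus replicate 2 correlated across genes between the genotypes with r of 0.0504. That shows no strong shift shared by samples of the same number, but it cannot exclude that they were paired. Where 1 array is left in a genotype, its spread is assumed to be that of the other pair. Most receptor, adaptor and Cd8a signals were dim, which limits their precision.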
